A study of Homo sapiens with 12 samples.

Results

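The 58 Wnt pathway genes described here were chosen by symbol and compared in MKL-1, an established line of human Merkel cell carcinoma, positive for Merkel cell polyomavirus. All 58 were found among the 28813 genes of the table of the whole series that the authors deposited. PolyA-selected RNA had been sequenced from 12 libraries in 4 groups of 3: cells given 3 µM EPZ011989, a small-molecule inhibitor of the histone methyltransferase EZH2, and cells given vehicle, each for 6 or 12 days. Every culture, treated or not, held 1% ethanol and was split with fresh medium every 3 days. The comparison asks how RNA of Wnt ligands, receptors, antagonists, transducers and targets differed between treated and vehicle cells at each day. The line is a single tumour model, and the labels do not say whether the libraries of a group came from separate cultures, so a p-value reflects only how much these libraries vary, and that variation may be technical. In RNA from bulk cultures, fewer cells with a transcript and less of it per cell cannot be told apart.

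Wnt ligands are lipid-modified secreted proteins that bind Frizzled receptors together with the LRP5 or LRP6 co-receptor. In the canonical branch this stops the destruction complex of AXIN, APC and GSK3B from marking beta-catenin, the product of CTNNB1, for degradation, and beta-catenin then acts with TCF/LEF proteins on target genes. Several targets, among them AXIN2, NKD1, NOTUM, RNF43 and ZNRF3, encode inhibitors of the same pathway and so mark its output. In skin, Wnt signalling is known for its role in the hair follicle and in the formation of touch domes, where Merkel cells lie. EZH2 is the enzyme of Polycomb repressive complex 2, which places the repressive mark H3K27me3, often at CpG-rich promoters of developmental genes.

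Reads summed over genes ranged from 15501969 to 20208991 per library, so that 3 reads stood for 0.148 to 0.194 CPM, the normalised read count per library size after edgeR's TMM scaling. Of the 12 Merkel cell carcinoma markers all had reads in every group, and their summed level was 4150 to 4270 CPM in vehicle and 3610 to 3670 in treated libraries of day 6, and 3750 to 4110 and 3590 to 3820 at day 12. All 6 fibroblast markers had reads in both treated groups, LUM had none in the day 12 vehicle group, and their sum was 14.9 to 20 CPM in vehicle against 21.8 to 29.8 in treated libraries at day 6 and 9.66 to 14.5 against 17.9 to 19.4 at day 12. DCN made up most of that sum, with group means of 10.7 to 18.8 CPM. The part of this difference in the results below was not tested. Leukocyte markers summed to at most 2.11 CPM, endothelial markers to at most 3.35 and keratinocyte markers to at most 11.8, with KRT1 at 0 reads throughout. On the third principal component, replicate 1 of vehicle at day 12 lay at -51.4 and its 2 fellows at -14.0 and 7.0.

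Of the 58 genes, 42 had enough reads for the test across all 15024 genes, and 16 did not: WNT1, WNT3A, WNT7B, WNT10B, WNT11, FZD10, ROR1, RNF43, LGR5, SFRP1, SFRP2, SFRP4, SFRP5, DKK1, DKK3 and FRZB. A gene is said to rise or fall where edgeR's quasi-likelihood test gave a Benjamini-Hochberg adjusted p under 0.05. At day 6, 15 of the 42 rose and 6 fell, beside 34.2% of all tested genes called (17.1% rose and 17.0% fell). At day 12, 19 rose and 10 fell, beside 66.9% of all tested genes called (33.7% rose and 33.2% fell). Of these, 9 rose and 0 fell at least 2-fold at day 6, beside 7.10% and 0.692% of all genes, and 11 rose and 3 fell at least 2-fold at day 12, beside 16.4% and 9.09%. The share of the 42 called at day 12 was thus near the background. The median log2 fold change of the 42 was 0.26 at day 6 and 0.30 at day 12, against -0.02 and 0.02 over all genes. Genes that pass the read filter only through a treated group had to be higher there, so their rises are not independent of the filter. Those that did not pass on the vehicle libraries alone were WNT3, WNT4, WNT5B, WNT6, WNT9A, FZD9, ROR2, APCDD1, TCF7 and TCF7L1. Among the 32 that pass on the vehicle libraries alone, 11 rose and 6 fell at day 6, where 16.3% and 18.4% of such genes did, and 13 rose and 10 fell at day 12, where 31.6% and 35.9% did. Their median log2 fold change was 0.11 and 0.22, against -0.04 at both days over such genes. At least 2-fold, 5 of the 32 rose and 0 fell at day 6 (5.39% and 0.721% of such genes), and 5 rose and 3 fell at day 12 (12.9% and 9.79%).

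**Figure D1:**
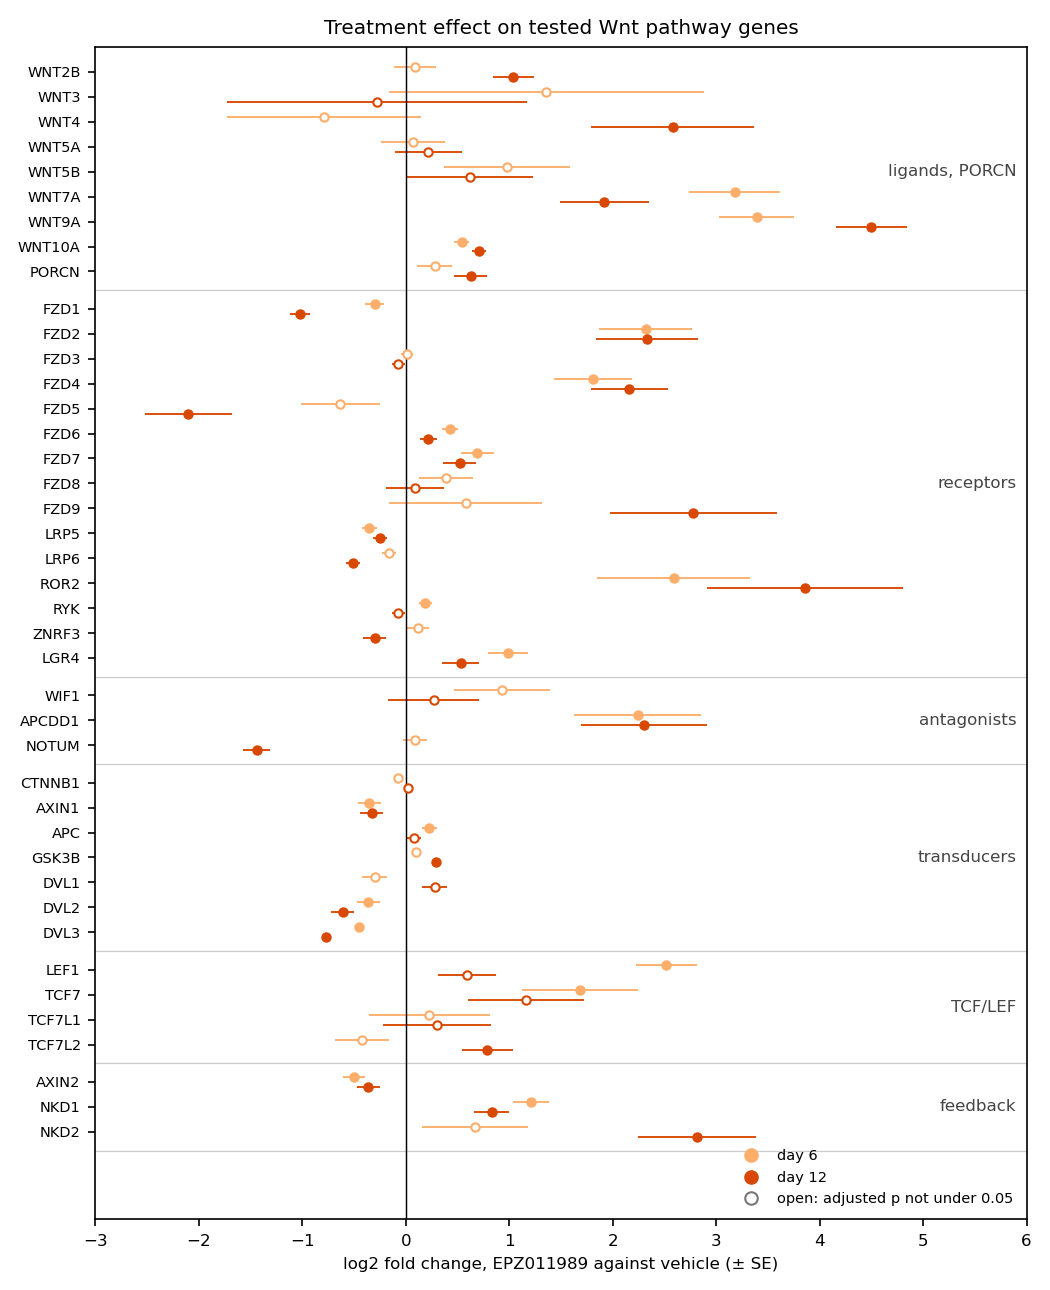
Log2 fold change of EPZ011989 against vehicle (x axis) with its standard error for each tested Wnt pathway gene, grouped by role, at day 6 (light) and day 12 (dark), with open points where the edgeR adjusted p is not under 0.05. No called ligand gene lies left of 0, called transducer genes lie on both sides, and the points of LEF1 and NOTUM lie far apart at the 2 days, by -1.93 and -1.53. WNT6 is left out because its day 12 vehicle libraries held no read.

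Levels can be compared between genes only per length, here in TPM, the length-corrected share of a library that the deposited tables give per transcript, summed per gene. Among the 14 ligand genes of the 58, WNT10A had the most RNA in the day 12 vehicle libraries, at 50.1 ± 4.28 TPM (SD, n = 3), and WNT5A followed at 1.13 ± 0.112 TPM. The other 12 lay under 1 TPM there. Among receptors and co-receptors RYK had 54.2 ± 4.86 TPM, LRP5 26.4 ± 1.32, FZD6 23.4 ± 0.16, FZD3 19.4 ± 3.06 and LRP6 17.1 ± 0.66, and the last 2 did not differ beyond their spread. NOTUM, with 21.1 ± 1.2 TPM, was far above the other 9 antagonist genes of the 58, of which WIF1 came next at 1.16 ± 0.79. CTNNB1 had 190 ± 21.1 TPM and DVL3 141 ± 9.37. The TCF/LEF genes were low: LEF1 had 3.08 ± 0.996 TPM, TCF7L2 2.25 ± 0.559, TCF7L1 0.370 ± 0.144 and TCF7 0.345 ± 0.305, and neighbours in that order overlapped except TCF7L2 and TCF7L1. In the treated libraries of day 12 WNT9A stood at 7.62 ± 0.751 TPM, second among the 14 ligand genes to WNT10A at 85.2 ± 3.97 TPM.

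**Figure D2:**
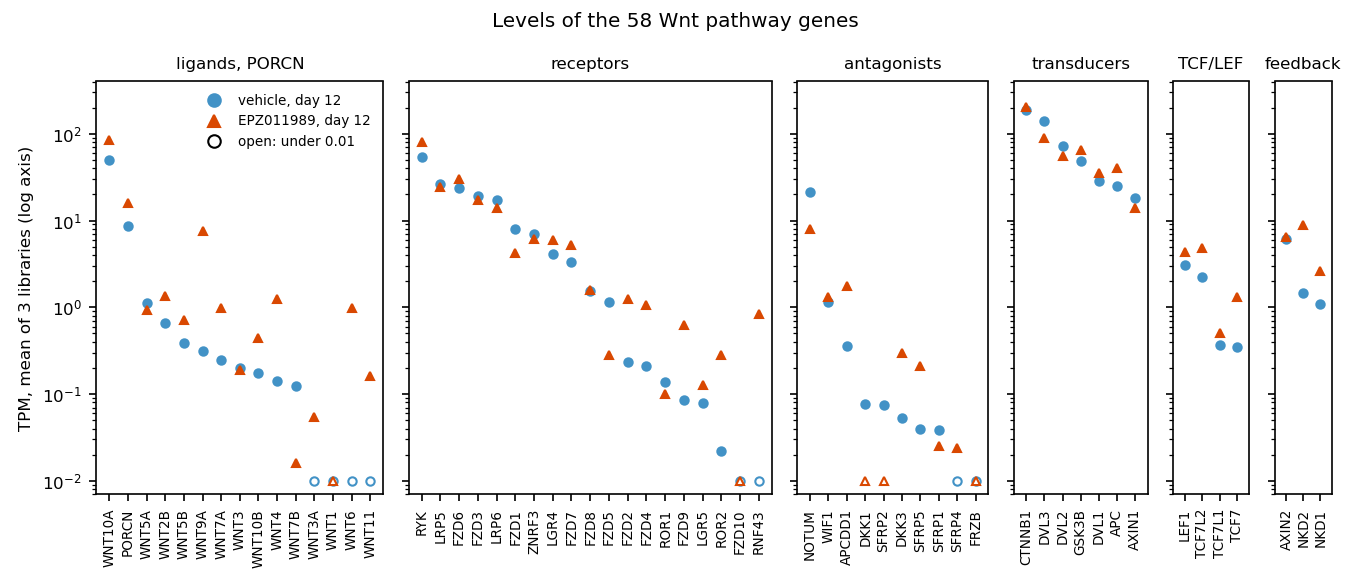
Mean TPM of 3 libraries (y axis, log scale) for all 58 genes in vehicle (circles) and EPZ011989 (triangles) at day 12, ordered by the vehicle level within each role, with open symbols under 0.01 TPM. WNT10A, RYK, NOTUM and CTNNB1 lead their roles in vehicle, and WNT9A, at 0.313 TPM in vehicle and 7.62 TPM in treated libraries, passes every plotted WNT gene except WNT10A.

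The members' promoters were read from RefSeq (build GRCh38.p14) as the 250 bases before the gene's start, and 42 of the 58 symbols were matched. No window was matched for WNT7B, WNT10B, WNT11, FZD2, FZD3, FZD6, FZD7, FZD10, LRP6, SFRP1, DKK3, AXIN2, ZNRF3, LGR5, NKD1 and NOTUM. The matched promoters share a high count of CpG dinucleotides: the median was 25 per window, against 17 over 15842 protein-coding promoters and 11 over 27305 promoters of all kinds. At least 10 CpG were found in 40 of the 42 windows (95.2%), against 68.6% and 51.9%. The 15 matched genes that rose at day 12 had a median of 29 CpG and the 6 that fell 32.5, so that a high count was found on both sides. The letters CTTTGAT or CTTTGAA, forms of the TCF/LEF motif, were searched on both strands. They were found in 1 of 42 windows (2.38%), that of DKK1 (CTTTGAA, 95 bases before the start), against 4.90% of protein-coding and 6.03% of all promoters. The target genes AXIN2, NKD1, NOTUM and ZNRF3 had no window and so were not searched. A match of letters is a description and not a binding site, and RefSeq starts lay over 1000 bases from the GENCODE gene start for 6 of the windows. The windows of the 2 ligand genes with the largest changes at day 6, and of 1 receptor gene that rose and 1 that fell, are shown 5′ to 3′ on the gene's strand, with each CpG in capitals, to let the risers and the faller be compared by eye. All 4 genes are on the minus strand. The WNT9A window (chr1:227947933-227948182) holds 44 CpG, that of WNT7A (chr3:13880072-13880321) 29, that of FZD4 (chr11:86955396-86955645) 33 and that of FZD5 (chr2:207769907-207770156), the only one of these genes that fell, 30.
WNT9A: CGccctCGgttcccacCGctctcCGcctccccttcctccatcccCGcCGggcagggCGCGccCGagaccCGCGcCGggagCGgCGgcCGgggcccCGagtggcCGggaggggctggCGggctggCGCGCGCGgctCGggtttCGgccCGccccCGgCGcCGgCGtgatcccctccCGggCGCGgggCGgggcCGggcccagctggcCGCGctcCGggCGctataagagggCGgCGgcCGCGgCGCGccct
WNT7A: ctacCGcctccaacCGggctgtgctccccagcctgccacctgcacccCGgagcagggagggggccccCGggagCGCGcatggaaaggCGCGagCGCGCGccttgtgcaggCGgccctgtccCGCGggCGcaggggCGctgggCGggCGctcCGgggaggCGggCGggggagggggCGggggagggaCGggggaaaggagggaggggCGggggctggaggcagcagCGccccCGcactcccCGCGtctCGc
FZD4: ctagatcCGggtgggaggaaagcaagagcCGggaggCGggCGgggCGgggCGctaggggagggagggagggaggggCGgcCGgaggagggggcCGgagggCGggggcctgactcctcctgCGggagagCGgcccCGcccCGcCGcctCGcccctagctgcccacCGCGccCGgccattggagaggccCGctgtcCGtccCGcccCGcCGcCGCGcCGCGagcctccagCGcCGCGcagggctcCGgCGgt
FZD5: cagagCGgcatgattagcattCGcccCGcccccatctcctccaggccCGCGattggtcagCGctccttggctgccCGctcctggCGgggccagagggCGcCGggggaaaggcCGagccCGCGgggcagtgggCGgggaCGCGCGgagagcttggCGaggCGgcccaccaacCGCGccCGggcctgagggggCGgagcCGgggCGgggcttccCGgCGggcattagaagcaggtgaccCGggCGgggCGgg

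The tested ligand genes were either called higher or not called. Of 15 genes (14 ligands and PORCN, the acyltransferase that attaches the lipid to Wnt proteins), 10 were tested. At day 6, 3 rose and 0 fell, beside 17.1% and 17.0% of all tested genes, and at day 12, 7 rose and 0 fell, beside 33.7% and 33.2%. Of the 5 that pass the read filter on the vehicle libraries alone, 2 rose at day 6 and 4 at day 12, and 0 fell. Over all such genes 16.3% rose and 18.4% fell at day 6, and 31.6% and 35.9% at day 12. A count over 5 genes is a weak guide to ligands as a class. By unadjusted edgeR p under 0.05 the falls were also 0 at both days, where 3390 and 5171 of all 15024 tested genes fell. WNT9A, WNT7A and WNT10A rose at both days, but WNT9A passes the read filter only through treated libraries.

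WNT9A (ENSG00000143816, chromosome 1, 227918656 to 227947898) encodes a ligand known from joint and blood stem cell development. It stood at 0.387, 0.326 and 0.423 CPM in the vehicle libraries of day 6 and at 4.31, 4.30 and 3.52 in the treated ones. The libraries of day 12 stood at 0.386, 1.18 and 0.322 CPM in vehicle and at 15.1, 13.0 and 16.2 with EPZ011989. All treated libraries were above all vehicle libraries at both days, and those of day 12 were above those of day 6. The log2 fold change was 3.39 ± 0.36 (SE) at day 6 (edgeR adjusted p = 5.76e-06) and 4.50 ± 0.34 at day 12 (edgeR adjusted p = 2.2e-08). The 2 effects differed by 1.11, which was not called (edgeR adjusted p = 0.0998). Because WNT9A passes the read filter only through treated libraries, it had to be higher in some of them to be tested. WNT3A, which lies beside WNT9A on chromosome 1 (228007051 to 228061260), had 5 reads over the treated libraries of day 12 and at most 1 in each other group.

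WNT7A (chromosome 3, 13816258 to 13880121), a ligand known from limb and nerve development, had 0.607, 0.217 and 0.317 CPM in vehicle and 2.60, 4.30 and 3.64 with EPZ011989 at day 6. WNT7A levels of day 12 were 0.644, 0.336 and 0.644 CPM in vehicle and 2.00, 2.66 and 1.46 in treated libraries. The groups did not overlap at either day. WNT7A rose by a log2 fold change of 3.18 ± 0.44 at day 6 (edgeR adjusted p = 6.84e-05) and 1.92 ± 0.43 at day 12 (edgeR adjusted p = 0.00123). Unlike that of WNT9A, its estimate was lower at day 12, by 1.27 on the log2 scale, but this did not pass the test of the difference (edgeR adjusted p = 0.109).

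WNT10A, known for its role in teeth, hair and sweat glands, was the most abundant of the 14 ligand RNAs and rose by a smaller factor. Its libraries held 48.4, 52.8 and 46.1 CPM in vehicle and 74.2, 72.8 and 67.6 in treated cells at day 6, and 43.1, 49.1 and 48.4 against 71.5, 78.1 and 80.4 at day 12. Its rise was 0.54 ± 0.07 (edgeR adjusted p = 5.6e-05) and 0.71 ± 0.07 (edgeR adjusted p = 8.44e-07). On the CPM scale WNT10A gained more than any other of the 14 ligand genes. WNT6 lies beside it on chromosome 2. It had no read in the 3 vehicle libraries of day 12 and 0.512, 0.553 and 1.52 CPM in the treated ones, at least 4.66-fold higher against a floor of 3 reads per library (edgeR adjusted p = 0.000378). At day 6 WNT6 had 18 reads in vehicle and 48 in treated libraries, a ratio of 2.77 (exact 95% interval 1.58 to 5.06, counting error only) that was not called (edgeR adjusted p = 0.115). WNT6, too, passes the read filter only through treated libraries.

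A further pair of ligand genes rose at day 12 and not at day 6. WNT2B had 4.20, 4.56 and 4.33 CPM in vehicle and 4.75, 5.07 and 4.10 in treated libraries of day 6, and the groups overlapped. The day 12 libraries had 2.90, 3.98 and 3.22 CPM in vehicle and 5.99, 8.29 and 6.57 in treated libraries, which did not. Its effect was 0.09 ± 0.20 on the log2 scale at day 6 and 1.04 ± 0.20 at day 12 (edgeR adjusted p = 0.000305), and the effects differed by 0.96 (edgeR adjusted p = 0.0113). WNT4, a ligand known from kidney and gonad development, had 0.387, 0.0543 and 0.528 CPM in vehicle and 0.294, 0.0641 and 0.173 in treated libraries of day 6, all near the level of a few reads. At day 12 it had 0.644, 0 and 0.386 CPM in vehicle and 2.46, 2.36 and 1.29 in treated libraries. Its change of 2.58 ± 0.79 on the log2 scale was called (edgeR adjusted p = 0.00992), or 16 against 118 reads, and the effect differed from day 6 by 3.38 (edgeR adjusted p = 0.0362). WNT4 passes the read filter only through treated libraries, where it had to be higher.

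PORCN rose at day 12, by 0.63 ± 0.16 on the log2 scale (edgeR adjusted p = 0.00354). At day 6 its value of 0.28 ± 0.17 was not called (edgeR adjusted p = 0.214), nor was the difference of 0.35 between the days (edgeR adjusted p = 0.239). WNT5A, the best known ligand of the beta-catenin-independent branch, had group means of 1.90 to 2.22 CPM and was not called at either day. WNT5B and WNT3 were also not called, and the summed reads of WNT3 were 0.429 times the authors' level, so that its value is incomplete. In the authors' table the mean of WNT3 was 3.25 in vehicle and 24.4 in treated libraries of day 6, and 6.59 and 22.3 at day 12. No test of these WNT3 means is given here, so a rise of WNT3 is not excluded. WNT1 had no read in any library. WNT7B, WNT10B and WNT11 stayed under 1 CPM in every library.

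Receptors moved in both directions. Of 19 receptor, co-receptor and receptor-turnover genes 15 were tested. At day 6, 7 rose and 2 fell, beside 17.1% and 17.0% of all tested genes. At day 12, 7 rose and 5 fell, beside 33.7% and 33.2%. Among the 13 that pass the read filter on the vehicle libraries alone, 6 rose and 2 fell at day 6 (16.3% and 18.4% of such genes). At day 12, 5 of these rose and 5 fell (31.6% and 35.9%). The treatment effect was lower at day 12 than at day 6 for 5 of the 15 (FZD1, FZD5, LRP6, RYK and ZNRF3) and higher for 0, also at an unadjusted edgeR p under 0.05. Over all 42 tested members the effect was higher at day 12 for 7 and lower for 8, beside 47.7% of all tested genes called (22.6% higher and 25.1% lower).

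FZD2 and FZD4 rose from low levels at both days. FZD2 (chromosome 17, 44557459 to 44559570) had 0.663, 1.47 and 0.264 CPM in vehicle and 3.92, 4.94 and 3.17 in treated libraries of day 6, and 0.515, 0.560 and 0.322 against 2.51, 2.51 and 2.14 at day 12. FZD2 rose on the log2 scale by 2.32 ± 0.45 (edgeR adjusted p = 0.00112) and 2.33 ± 0.49 (edgeR adjusted p = 0.000666). The difference between the 2 effects was not called (edgeR adjusted p = 0.988). FZD4, the receptor for Norrin as well as for Wnt proteins (chromosome 11, 86945679 to 86955391), had 0.607, 0.489 and 1.11 CPM in vehicle and 2.64, 2.24 and 2.89 in treated libraries of day 6. The day 12 levels were 0.708, 1.06 and 0.773 CPM against 5.01, 3.97 and 2.53. Neither day showed an overlap, and the log2 fold change was 1.81 ± 0.38 (edgeR adjusted p = 0.0019) and 2.16 ± 0.37 (edgeR adjusted p = 0.000128).

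FZD1 and FZD5 went the other way. FZD1 (chromosome 7, 91264364 to 91271326) had 33.5, 29.8 and 30.4 CPM in vehicle and 26.1, 23.8 and 26.1 in treated libraries of day 6, and 27.6, 27.2 and 33.2 against 13.7, 15.7 and 13.8 at day 12. Its log2 fold change was -0.30 ± 0.09 (edgeR adjusted p = 0.0242) and -1.02 ± 0.10 (edgeR adjusted p = 3.48e-07), a difference of -0.72 (edgeR adjusted p = 0.000564). The small fall at day 6 was not called from the authors' table, with transcript lengths as an offset, or without any 1 of the 3 vehicle libraries or treated replicate 2 of that day, with estimates of -0.31 to -0.23. FZD5 (chromosome 2, 207762586 to 207769563) had 5.36, 6.30 and 6.29 CPM in vehicle and 3.09, 4.49 and 4.04 in treated libraries of day 6. At day 12 the vehicle libraries held 3.15, 3.98 and 5.80 CPM and the treated ones 0.665, 1.91 and 0.393. It fell at day 12, by 2.10 ± 0.42 on the log2 scale (edgeR adjusted p = 0.000511), and at day 6 the value of -0.63 ± 0.38 was not called (edgeR adjusted p = 0.223). The effects differed by -1.47 (edgeR adjusted p = 0.045).

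The remaining Frizzled genes varied in the size of their change. FZD6 rose by a log2 fold change of 0.43 ± 0.08 at day 6 and 0.22 ± 0.08 at day 12, and FZD7 by 0.69 ± 0.16 and 0.52 ± 0.16. FZD9 had 5 reads in the vehicle libraries of day 12 and 42 in the treated ones, a ratio of 7.18 (exact 95% interval 2.84 to 23.2, edgeR adjusted p = 0.00751). It passes the read filter only through treated libraries. FZD3 and FZD8 were not called, with values between -0.07 and 0.39. The abundant receptor genes FZD3, FZD6, LRP5, LRP6 and RYK thus all stayed within a log2 change of 0.51 in either direction. LRP5 fell at both days (-0.35 ± 0.07 and -0.25 ± 0.07) and LRP6 at day 12 (-0.51 ± 0.07, edgeR adjusted p = 9.51e-06). RYK, an atypical receptor, rose at day 6 (0.19 ± 0.06) and had -0.07 ± 0.06 at day 12, where its TPM, which depend on which transcripts the reads were given to, were 54.2 ± 4.86 in vehicle and 80.5 ± 8.24 in treated libraries.

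ROR2, a tyrosine kinase receptor for WNT5A (chromosome 9, 91563091 to 91950162), had 0.387, 0.0543 and 0.0528 CPM in vehicle and 1.42, 0.449 and 1.15 in treated libraries of day 6. The levels of day 12 were 0, 0.0560 and 0.0644 CPM against 0.512, 0.653 and 0.899. The treated libraries were above the vehicle libraries at both days, but all values were low. ROR2 passes the read filter only through treated libraries, where it had to be higher. Its log2 fold change at day 6 was 2.59 ± 0.74 (edgeR adjusted p = 0.0139), and the call was lost without vehicle replicate 2 (2.21, edgeR adjusted p = 0.069), vehicle replicate 3 (2.2, 0.0683) or treated replicate 1 (2.26, 0.0665) of that day. With 2 reads in vehicle and 39 in treated libraries of day 12 the ratio was 16.7 (exact 95% interval 4.31 to 142; edgeR adjusted p = 0.00247). ROR1 had 12 to 18 reads per group and was not tested.

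Receptor turnover is represented by 4 genes. RNF43 and ZNRF3 encode ubiquitin ligases that remove Frizzled proteins from the membrane, and LGR4 and LGR5 encode the R-spondin receptors that block them. RNF43 had 0.102, 0.754 and 0.618 CPM in the treated libraries of day 12 (28 reads) and no read in the vehicle ones, at least 2.66-fold higher against 3 reads per library. It had 2 and 1 reads in vehicle and treated cells of day 6, and it did not pass the filter for the test. ZNRF3 had 25.3, 27.5 and 28.4 CPM in vehicle and 26.0, 33.2 and 29 in treated libraries of day 6, and 26.0, 24.4 and 31.4 against 21.2, 23.0 and 22.4 at day 12. ZNRF3 had a log2 fold change of 0.12 ± 0.11 and then -0.30 ± 0.11 (edgeR adjusted p = 0.0257), with a difference of -0.41 (edgeR adjusted p = 0.0373). The ZNRF3 call at day 12 was lost without vehicle replicate 3 (-0.18, edgeR adjusted p = 0.152), treated replicate 1 (-0.25, 0.0943) or treated replicate 3 (-0.30, 0.0521), and with library totals in place of TMM (-0.23, 0.0841).

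LGR4 rose at both days, with group means of 6.03 ± 0.992 and 12.0 ± 0.519 CPM (SD, n = 3) at day 6 and 7.89 ± 1.74 and 11.4 ± 2.05 at day 12. On the log2 scale it rose by 0.99 ± 0.19 (edgeR adjusted p = 0.000874) and 0.53 ± 0.18 (edgeR adjusted p = 0.0197). LGR5, a stem cell marker in gut and hair follicle, was near the limit of detection. It had 0.110, 0.217 and 0 CPM in vehicle and 0.882, 0.385 and 0.404 in treated libraries of day 6 (6 against 31 reads, ratio 5.37, exact 95% interval 2.21 to 15.7). At day 12 it had 0.322, 0 and 0 CPM against 0.358, 0.251 and 0.112 (5 against 14 reads, ratio 2.39, interval 0.814 to 8.49). These intervals cover counting error only.

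**Figure D3:**
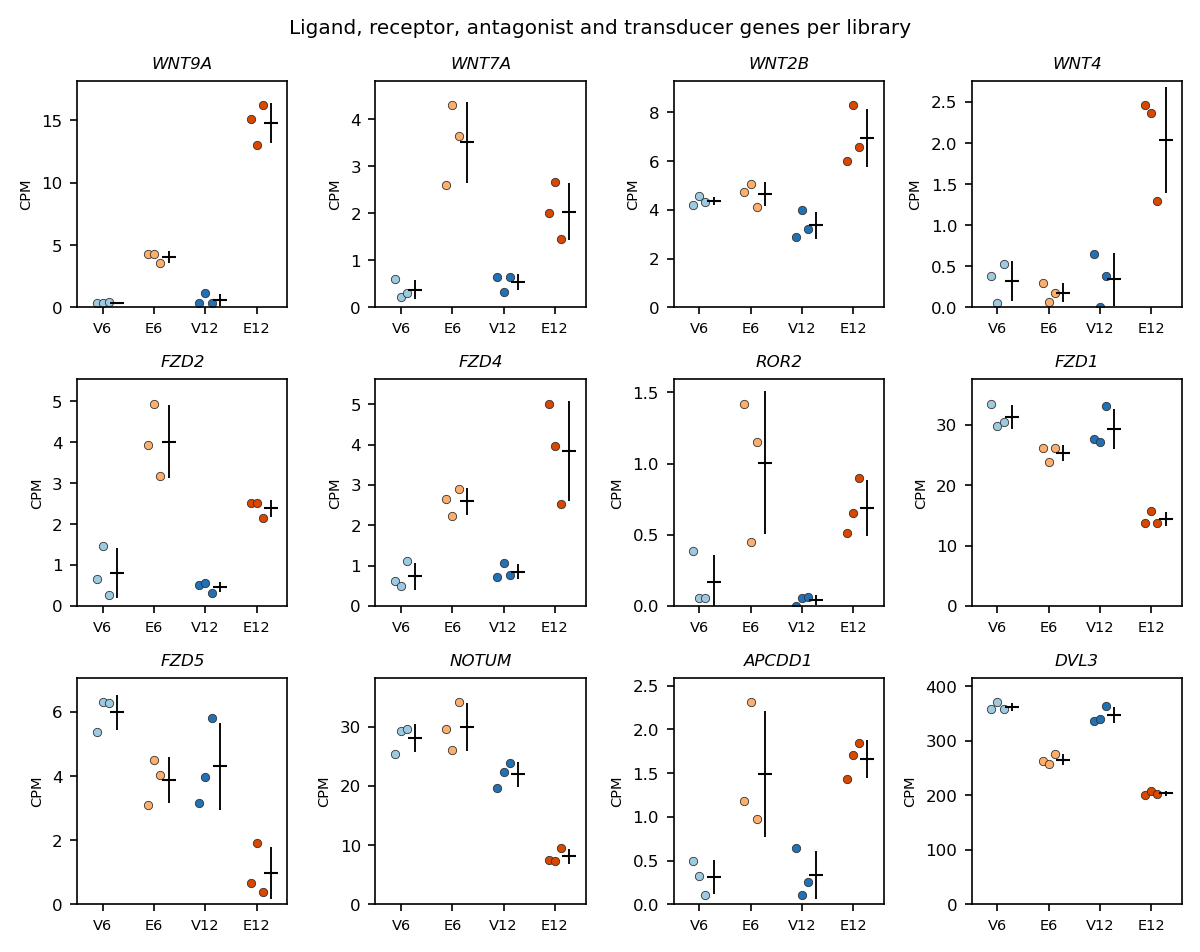
CPM (y axis, from 0) in each of the 12 libraries for 12 genes of ligands, receptors, antagonists and transducers, as points by group (V6 and V12 vehicle, E6 and E12 EPZ011989, at day 6 and day 12), with the group mean and SD beside them. WNT9A reached 13.0 to 16.2 CPM in the treated libraries of day 12, NOTUM had 7.24 to 9.55 there while its groups overlapped at day 6, and FZD2 and FZD4 were above vehicle at both days.

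Secreted antagonists were largely silent in this line, apart from NOTUM. Of 10 antagonist genes only WIF1, APCDD1 and NOTUM had enough reads for a test. The 4 SFRP genes and FRZB, decoys that resemble the Frizzled ligand-binding domain, had at most 13 reads summed over any group, and FRZB had none in any library. DKK1, the LRP antagonist and a target of the pathway, had 3 reads at most in a group. DKK3 had 10 and 25 reads at day 6 and 3 and 24 at day 12 in vehicle and treated libraries.

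NOTUM (chromosome 17, 81952507 to 81961840) encodes an extracellular enzyme that removes the lipid from Wnt proteins. It had 25.3, 29.3 and 29.6 CPM in vehicle and 29.6, 26.0 and 34.1 in treated libraries of day 6, which overlapped. NOTUM levels at day 12 were 19.6, 22.4 and 23.8 CPM in vehicle and 7.47, 7.24 and 9.55 in treated libraries. The treated libraries of day 12 were below all others. The log2 fold change was 0.09 ± 0.12 at day 6 (edgeR adjusted p = 0.607) and -1.44 ± 0.13 at day 12 (edgeR adjusted p = 2.3e-07), and the effects differed by -1.53 ± 0.18 (edgeR adjusted p = 8.22e-06).

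APCDD1, a membrane-bound Wnt inhibitor, was at a low level and passes the read filter only through treated libraries. It had 0.497, 0.326 and 0.106 CPM in vehicle and 1.18, 2.31 and 0.981 in treated libraries of day 6, and 0.644, 0.112 and 0.258 against 1.43, 1.71 and 1.85 at day 12. Its log2 fold change was 2.24 ± 0.61 (edgeR adjusted p = 0.0113) and 2.30 ± 0.61 (edgeR adjusted p = 0.00415). With transcript lengths as an offset the estimates were 1.55 (edgeR adjusted p = 0.319) and 2.21 (0.0744), and from the values of the authors 1.01 (limma adjusted p = 0.415) and 1.86 (0.0652), so neither call held there. The day 6 call was also lost without vehicle replicate 3 (1.85, edgeR adjusted p = 0.0514) or treated replicate 2 (1.79, 0.0642). WIF1 had 0.93 ± 0.46 and 0.27 ± 0.44 and was not called.

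Cytoplasmic transducers were abundant, and 0 of the 7 genes were called with a change of at least 2-fold at either day. At each day 1 rose and 3 fell, beside 17.1% and 17.0% of all tested genes at day 6 and 33.7% and 33.2% at day 12. CTNNB1 (chromosome 3, 41194741 to 41260096), the gene of beta-catenin, had 281, 277 and 298 CPM in vehicle and 275, 277 and 265 in treated libraries of day 6, and 268, 292 and 272 against 290, 277 and 278 at day 12. The groups overlapped at both days. The log2 change of CTNNB1 was -0.07 (95% interval -0.16 to 0.03) at day 6 and 0.02 (-0.07 to 0.12) at day 12. RNA levels say nothing of the amount or location of the protein, at which beta-catenin is mainly controlled.

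The Dishevelled genes, which pass the signal from Frizzled to the destruction complex, did not move together. DVL3, the most abundant of them, fell at both days, from 358, 371 and 358 CPM in vehicle to 264, 257 and 276 in treated libraries at day 6, and from 336, 341 and 364 to 200, 209 and 202 at day 12. These falls were of -0.45 ± 0.04 (log2; edgeR adjusted p = 1.36e-06) and -0.77 ± 0.04 (edgeR adjusted p = 6.19e-10), the smallest p among the 42 genes at day 12, and the effects differed by -0.32 (edgeR adjusted p = 0.000457). DVL2 fell by 0.36 ± 0.11 and 0.61 ± 0.11 on the log2 scale. DVL1 had -0.30 ± 0.12 and 0.28 ± 0.12, neither called, yet the effects differed by 0.58 (edgeR adjusted p = 0.0117). In the destruction complex AXIN1 fell at both days (-0.35 ± 0.11 and -0.33 ± 0.11), GSK3B rose at day 12 (0.29 ± 0.04, edgeR adjusted p = 1.72e-05) and APC rose at day 6 (0.23 ± 0.07, edgeR adjusted p = 0.0219).

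The TCF/LEF genes encode the DNA-binding partners of beta-catenin. Of the 4, 2 rose at day 6 (LEF1 and TCF7) and 1 at day 12 (TCF7L2), and 0 fell, also by unadjusted edgeR p under 0.05. Of all tested genes 17.1% rose and 17.0% fell at day 6, and 33.7% and 33.2% at day 12. Only LEF1 and TCF7L2 pass the read filter on the vehicle libraries alone, and of these 2, 1 rose at each day. Over all genes passing that filter 16.3% rose at day 6 and 31.6% at day 12. TCF7 passes only through treated libraries, and such genes had to be higher there. LEF1 (ENSG00000138795, chromosome 4, 108047545 to 108168956), itself a known target of the pathway, had 3.04, 2.50 and 1.21 CPM in vehicle and 12.1, 13.5 and 13.2 in treated libraries of day 6. At day 12 it had 4.76, 3.70 and 2.96 CPM in vehicle and 4.55, 5.33 and 7.36 in treated libraries. The treated libraries of day 6 were far above the other 9, and the groups of day 12 overlapped. The log2 fold change was 2.52 ± 0.29 at day 6 (edgeR adjusted p = 1.1e-05) and 0.59 ± 0.28 at day 12 (edgeR adjusted p = 0.075), and the effects differed by -1.93 ± 0.40 (edgeR adjusted p = 0.0011). At day 12 LEF1 crossed the threshold under DESeq2 (0.60, adjusted p = 0.0465), with library totals (0.66, edgeR adjusted p = 0.0481), and without vehicle replicate 3 of day 6 (0.60, 0.0288), vehicle replicate 1 of day 12 (0.78, 0.0382) or treated replicate 1 of day 12 (0.75, 0.0454).

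Reads of LEF1 were assigned to both coding and noncoding transcripts of the GENCODE annotation. Its coding transcripts alone summed to 0.941 ± 0.626 TPM in vehicle and 5.43 ± 0.504 in treated libraries of day 6 (SD, n = 3), and to 2.2 ± 0.267 and 3.18 ± 0.968 at day 12. LEF1-202, a coding transcript that starts at the annotated gene start, held 92 reads in vehicle and 355 in treated libraries of day 6. The coding transcripts therefore showed the same order of groups as the summed reads.

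TCF7 had 0.442, 0.217 and 0.475 CPM in vehicle and 2.25, 0.577 and 0.808 in treated libraries of day 6, and 0.708, 0.392 and 0.386 against 1.28, 1.11 and 0.955 at day 12. The groups did not overlap, but treated replicate 1 of day 6 lay far above its group. On the log2 scale TCF7 rose by 1.68 ± 0.56 at day 6 (edgeR adjusted p = 0.0326), and its value of 1.16 ± 0.56 at day 12 was not called (edgeR adjusted p = 0.0794). Without that replicate the day 6 value was 0.87 (edgeR adjusted p = 0.29), and the call was also lost without vehicle replicate 1 (1.82, 0.0642), 2 (1.43, 0.126) or 3 (1.90, 0.0616), with transcript lengths as an offset (0.83, 0.59) and in the authors' table (0.75, limma adjusted p = 0.551). At day 12 TCF7 passed with the replicate number as a block (1.22, edgeR adjusted p = 0.0493) and in a fit of that day's libraries alone (1.16, 0.0428).

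TCF7L2, unlike LEF1, had a higher treatment effect at day 12 than at day 6. It had 2.82, 4.72 and 4.07 CPM in vehicle and 2.60, 2.89 and 3.23 in treated libraries of day 6, and 2.77, 3.53 and 4.44 against 5.83, 5.18 and 7.59 at day 12. The groups overlapped at day 6 and not at day 12. Its log2 fold change was -0.42 ± 0.26 (edgeR adjusted p = 0.239) and 0.79 ± 0.25 (edgeR adjusted p = 0.0126), with a difference of 1.2 ± 0.36 (edgeR adjusted p = 0.0131). The day 12 call was lost without vehicle replicate 1 (0.63, edgeR adjusted p = 0.0519) or treated replicate 3 (0.62, 0.066) of that day. TCF7L1, which acts mainly as a repressor, had 0.166, 0.326 and 0.423 CPM in vehicle and 0.294, 0.449 and 0.346 in treated libraries of day 6, and 0.579, 0.448 and 0.644 against 0.358, 0.804 and 0.899 at day 12, and was not called.

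Feedback targets did not move as a group. AXIN2 (chromosome 17, 65528563 to 65561647), the most used readout of beta-catenin output, had 18.6, 22.0 and 19.0 CPM in vehicle and 14.7, 13.2 and 14.3 in treated libraries of day 6. At day 12 it had 15.0, 13.2 and 16.7 CPM in vehicle and 11.4, 11.3 and 12.2 in treated libraries. Treated libraries were below the vehicle libraries of their day both times. The log2 fold change was -0.50 ± 0.11 (edgeR adjusted p = 0.0026) and -0.36 ± 0.11 (edgeR adjusted p = 0.00975). The day 12 call rests on the scale: AXIN2 had 6.13 ± 0.860 and 6.39 ± 0.517 TPM there, a log2 change of -0.05 with transcript lengths as an offset (edgeR adjusted p = 0.815) and of -0.04 in the authors' table (limma adjusted p = 0.836). It was also lost without vehicle replicate 3 of day 12 (-0.27, edgeR adjusted p = 0.0584).

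NKD1 and NKD2 encode Naked cuticle proteins, which bind Dishevelled and dampen the signal. NKD1 (chromosome 16, 50548330 to 50649249) had 2.98, 4.24 and 4.28 CPM in vehicle and 8.72, 8.59 and 9.41 in treated libraries of day 6, and 4.63, 3.87 and 4.38 against 7.52, 7.69 and 7.64 at day 12. The groups stood apart at both days, and the gene rose by 1.21 ± 0.17 (edgeR adjusted p = 7.18e-05) and 0.83 ± 0.17 (edgeR adjusted p = 0.000576). Neither was called with transcript lengths as an offset (2.40, edgeR adjusted p = 0.068, and 1.31, 0.217) or in the authors' table (2.02, limma adjusted p = 0.0807, and 1.38, 0.148). There a few reads on short noncoding transcripts weighed heavily: NKD1-202 held 7 of the reads in treated cells of day 6 and 58.4% of the pooled TPM. The coding transcript NKD1-201 alone had 0.272, 0.383 and 0.386 TPM in vehicle and 0.825, 0.759 and 0.882 in treated libraries of day 6, and 0.378, 0.358 and 0.412 against 0.759, 0.726 and 0.714 at day 12.

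NKD2 (chromosome 5, 1008829 to 1038943) had 2.37, 3.69 and 3.27 CPM in vehicle and 5.14, 5.07 and 4.68 in treated libraries of day 6. At day 12 the vehicle libraries spread widely, at 0.0644, 0.560 and 2.32 CPM, and the treated ones held 5.12, 7.09 and 8.32. Treated libraries were above vehicle libraries at both days. NKD2 had a log2 fold change of 0.67 ± 0.51 at day 6 (edgeR adjusted p = 0.344) and 2.81 ± 0.57 at day 12 (edgeR adjusted p = 0.000569), with a difference of 2.14 (edgeR adjusted p = 0.0327). The size at day 12 depends on the vehicle libraries: it was 2.26 without replicate 1, 2.51 without replicate 2 and 4.37 without replicate 3, and the largest edgeR adjusted p of these 3 fits was 0.00411.

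**Figure D4:**
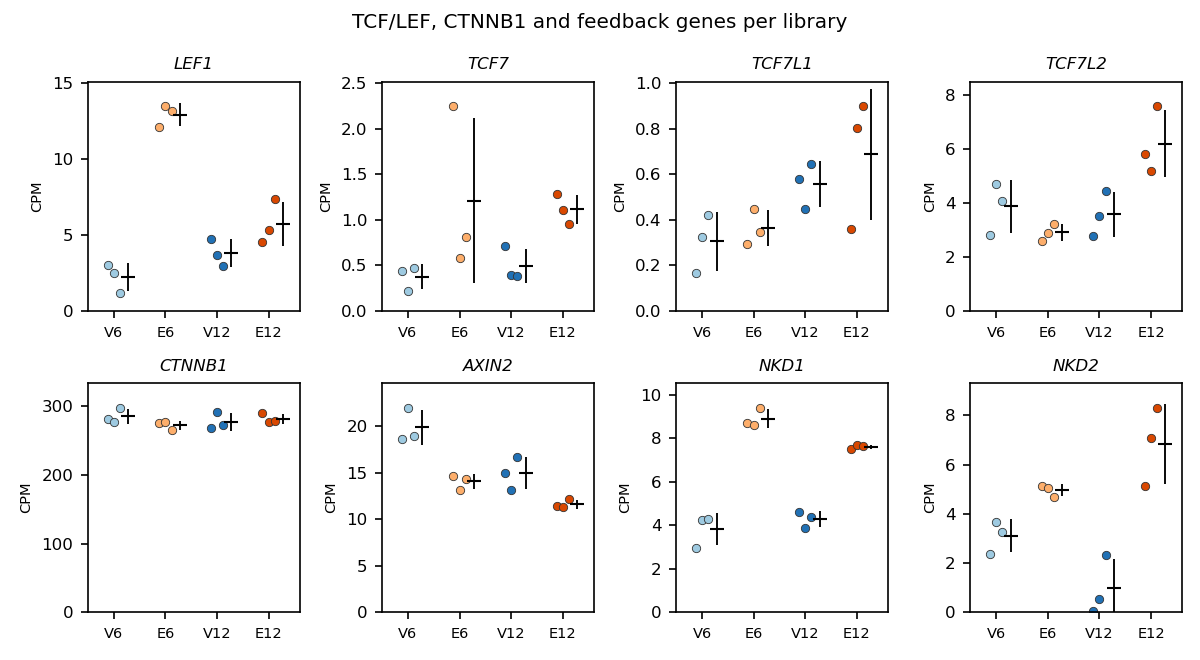
CPM (y axis, from 0) in each of the 12 libraries for the 4 TCF/LEF genes, CTNNB1 and 3 feedback genes, as points by group (V6 and V12 vehicle, E6 and E12 EPZ011989, at day 6 and day 12) with the group mean and SD beside them. LEF1 stands at 12.1 to 13.5 CPM in treated libraries of day 6 and at 4.55 to 7.36 in those of day 12, CTNNB1 lies between 265 and 298 CPM in all libraries, and the day 12 vehicle libraries of NKD2 spread from 0.0644 to 2.32 CPM.

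In vehicle alone, few of these genes differed between the days. From day 6 to day 12, 2 of 42 rose (FZD6 by 0.26 and APC by 0.26 on the log2 scale) and 2 fell (AXIN2, by 0.41, edgeR adjusted p = 0.0287, and WNT6, from 18 reads to none), beside 13.1% of all tested genes called (5.96% rose and 7.15% fell). Leaving out vehicle replicate 3 of day 12 raised this to 14 genes, while leaving out replicate 1 or 2 of day 12, or replicate 2 or 3 of day 6, gave 0 by edgeR, with 9 to 12 at an unadjusted p under 0.05. The vehicle levels of the 2 days are therefore given apart throughout.

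A further 79 genes of the pathway, listed by role, gave the wider frame, and 59 of them were tested. At day 6, 19 rose and 14 fell, with a median log2 fold change of 0.08, beside 34.2% of all tested genes called (17.1% rose and 17.0% fell). At day 12, 35 rose and 12 fell, with a median of 0.48, beside 66.9% called (33.7% rose and 33.2% fell). The same shares of day 12 apply to the counts by role that follow. Of 14 tested cytoplasmic transducer genes 10 rose and 1 fell, whereas of the 7 among the members 1 rose and 3 fell. All 3 tested ligand and secretion genes rose. Receptor and co-receptor genes gave 3 rises and 4 falls of 10, and other target genes 4 rises and 2 falls of 6. The 1 tested antagonist gene was not called. Of 14 nuclear co-factor genes 10 rose and 3 fell at day 12, among them TLE2, which rose by 1.58 ± 0.09 (edgeR adjusted p = 1.12e-09), and TLE1, which fell by 1.18 ± 0.09 (edgeR adjusted p = 3.17e-08). Both encode Groucho co-repressors that bind TCF/LEF proteins. BCL9, which links beta-catenin to its co-activators, rose by 0.92 ± 0.07 (edgeR adjusted p = 2.08e-08). In the planar polarity branch 5 of 11 rose and 2 fell: DAAM1, a formin that binds Dishevelled, rose from 151 to 424 CPM (1.49 ± 0.05, edgeR adjusted p = 4.73e-12) and VANGL2 by 0.72 ± 0.06, whereas VANGL1 fell by 1.14 ± 0.06 and PRICKLE1 by 1.5 ± 0.10. GPC3, a membrane glypican that binds Wnt proteins, fell from 128 to 26.0 CPM at day 12 (-2.29 ± 0.07, edgeR adjusted p = 6.2e-13).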

How the data were processed

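PolyA RNA-seq of 12 libraries was used as deposited. Salmon 1.2.0 gave the estimated counts and TPM per transcript that the authors deposited; the submitters' processing notes list it beside FastQC, DESeq2 and hg38. A normalized signal per gene, deposited for all libraries together, was also used, and how the authors scaled it is not given in the sources here. Of 179883 transcripts, 168219 (93.5%) were matched to GENCODE 29 genes, and unmatched ones held 3.08 to 3.58% of a library's reads. Estimated counts were summed per gene, rounded, filtered with filterByExpr and scaled by TMM. The quasi-likelihood test of edgeR 4.0.16 under R 4.3.3 (two-sided) was run in a single fit of 4 groups with 8 residual degrees of freedom, with Benjamini-Hochberg adjustment over 15024 genes. Standard errors are the size of the log2 fold change over the root of the F statistic. Ratios of few reads are scaled for library size, and their exact intervals cover counting error only.

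The genes and lists were chosen with earlier results of these data known. Genes given in every library were those called at a day, at least 2-fold changed, without overlap of the groups and with 1 CPM or more on average in the higher one, besides AXIN2, LEF1, TCF7, TCF7L1, TCF7L2, CTNNB1, LGR5, RNF43, ZNRF3 and NKD1. WNT10A, DVL3 and ROR2 at day 12 were added after their values were seen. Outside the members, up to 4 per direction with the smallest p at day 12 were named. Alternatives were DESeq2 1.42.0, other scalings and filters, a transcript length offset, limma 3.58.1 on log2(value + 1) or log2(value + 5) of the authors' table, a replicate block and the omission of each library in turn. Simulated counts for 15024 genes were tested, with 200 changed, drawn from genes of at least 1 CPM on average. At day 6, 77% of 2-fold and 94% of 4-fold changes were recovered (9 false calls), and 83% and 98% at day 12 (9). Those rates do not cover genes under 1 CPM, and far fewer genes were changed than were called in the data. No replicate pair agreed within sampling noise.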

Additional observations from a re-analysis of the deposited data

Results flagged for a closer look

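For 9 of the genes chosen by the naming rule, the treatment effect differed between day 12 and day 6 by the test of the difference itself (edgeR, adjusted p under 0.05). Day 12 exceeded day 6 on the log2 scale by 0.96 for WNT2B, 3.38 for WNT4, 1.2 for TCF7L2 and 2.14 for NKD2. It was below day 6 by -0.72 for FZD1, -1.47 for FZD5, -1.93 for LEF1, -0.41 for ZNRF3 and -1.53 for NOTUM. DVL3, given in every library outside that rule, also differed, by -0.32. WNT4 rests on 10 to 18 reads in the other 3 groups and passes the read filter only through treated libraries. NKD2 rests on day 12 vehicle libraries that spread from 0.0644 to 2.32 CPM.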

How the results depend on the processing

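Counts of called genes stayed within 1.5 times their value for both treatment contrasts and for the difference between days under every alternative that was fitted. Leaving out each library in turn gave 15 to 23 genes at day 6, 24 to 32 at day 12, 11 to 16 for the difference and 0 to 14 for day 12 against day 6 in vehicle. That last count, 4, was 7 with no filter on low counts, 8 by DESeq2, 9 with the replicate number as a block, and 0 in a fit of only the vehicle libraries, with the transcript length offset, and in the authors' table with each pseudocount and with no filter. At an unadjusted p under 0.05 those settings had 8 (vehicle libraries, edgeR), 5 (length offset, edgeR) and 4 to 5 (authors' table, limma) genes. Same-numbered libraries of different groups showed little shared deviation (correlations of -0.05 to 0.09 over 18 pairs). The labels state no pairing, and weak correlations among so few libraries cannot exclude one. The main fit does not pair the libraries. Besides the vehicle count, the replicate block moved 1 value of a gene chosen by the naming rule across the threshold, TCF7 at day 12.

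For the tested genes chosen by the naming rule, which leaves out WNT10A and DVL3, 838 of 904 alternative values kept direction and side of the threshold, 49 lost the call, 10 gained it and 7 changed sign. The sign changes were those of CTNNB1 at day 12 (-0.02 with the length offset and in the authors' table with each setting, and -0.01 to 0.06 on leaving out each library in turn), TCF7L1 at day 6 (-0.04 to 0.56 on leaving out each library, the lowest without vehicle replicate 1) and NOTUM at day 6 (-0.01 to 0.18, the lowest without treated replicate 3), none of them called. For CTNNB1 the lowest came without vehicle replicate 1 of day 12. The median of all genes moved at most to 0.09 under another scaling. With library totals 58% of the calls at day 6 and 55.6% at day 12 were rises, against 50.2% and 50.3% with TMM. The filter on vehicle libraries was chosen after seeing the data. Depth limits the 16 genes that were not tested: 3 reads stand for up to 0.194 CPM.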
